A study of Mus musculus with 20 samples.

Results

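The genes described here are 36 genes of glycolysis and of the response to low oxygen, out of 23432 gene symbols counted in 12 RNA libraries of mouse embryonic skin. They were taken by name from 2 lists: 21 glycolytic enzymes and carriers of glucose or lactate, and 15 genes of the hypoxia response, most of them targets of hypoxia-inducible factor (HIF) and some of them brakes on it. The lists were chosen with earlier results of these data known. Shares of these genes set beside those of all genes therefore describe the lists and do not test them. All 36 symbols were present in the files. The embryos carried a GFP knock-in at ΔNp63, the form of the transcription factor p63 (gene Trp63) that is made in epidermis. There were 4 groups of 3 libraries: ΔNp63-GFP KI-Het epidermis at embryonic day 9 (E9), KI-Het epidermis at E13, KI-KO epidermis at E13 and KI-Het dermis at E13. Every group carried the knock-in allele, so the heterozygous (Het) embryos are the controls of the knockout (KO) and no wild-type library was analysed here. Back skin was digested with collagenase and trypsin. Epidermal cells were then sorted by their GFP, that is by activity of the modified locus itself, and dermal cells by the surface marker CD140a. Ribosomal RNA was removed from epidermal RNA, whereas dermal RNA was picked by oligo(dT), so tissue and RNA preparation cannot be told apart. Whether replicates were separate animals or litters is not stated in the labels, so a p-value speaks only of the spread among these samples.

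Glycolysis splits glucose into pyruvate in the cytosol, and lactate dehydrogenase turns pyruvate into lactate, which leaves the cell through monocarboxylate carriers. HIF is a transcription factor that is destroyed while oxygen is present, after prolyl hydroxylases mark it, and that raises the glycolytic genes when oxygen is scarce. It also raises genes that slow its own action or cut the use of oxygen by mitochondria. Early embryos grow at low oxygen and lean on glycolysis before their circulation is complete.

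Levels are CPM, gene counts scaled to a common library total after TMM normalisation, given per library or as mean ± SD of 3 libraries. A change is a log2 fold change ± standard error from edgeR's quasi-likelihood test, and a gene was called when its Benjamini-Hochberg adjusted p over all genes tested was under 0.05. Epidermal libraries held 3373819 to 7777808 gene counts and dermal libraries 16931664 to 33386872. Genes with at least 1 count numbered 10765 to 16200 in epidermal libraries, with the fewest in E13 Het replicate 1 and the next fewest in KO replicate 3. Trp63, the modified gene, was at 279, 218 and 121 CPM in the E9 libraries, at 520, 611 and 454 CPM in the E13 Het libraries, at 23.0, 25.0 and 20.4 CPM in the KO libraries and at 0.462, 0 and 2.15 CPM in dermis, in the direction of the labels. The 10 epidermal markers summed to 2242 to 4685 CPM in epidermal and 10.7 to 14.2 CPM in dermal libraries, and the 10 dermal mesenchyme markers to 169 to 2068 CPM and 30739 to 41600 CPM.

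The summed level of the glycolytic genes was highest in E9 epidermis, where 12 of the 21 had their highest group mean. The share of all genes with their highest mean at E9 was not computed. The 21 levels added up to 7861 to 8750 CPM in the E9 libraries, 4508 to 5001 CPM in E13 Het epidermis, 4522 to 5733 CPM in KO epidermis and 4325 to 5460 CPM in dermis, and the E9 libraries did not overlap any other group. The glucose transporter Slc2a3 alone made up 1875 to 2252 CPM of this at E9. It made up 359 to 920 CPM in E13 Het, 478 to 713 CPM in KO and 5.56 to 11.8 CPM in dermis. The sum without Slc2a3 was not computed. Eno1 had almost no counts, so these sums leave that enzyme out. The 15 hypoxia response genes added up to 771 to 915 CPM at E9, 890 to 961 CPM in E13 Het, 890 to 970 CPM in KO and 952 to 1060 CPM in dermis, so for this sum the E9 and E13 Het epidermal libraries overlapped. In bulk RNA, fewer cells of a type and less RNA per cell cannot be told apart. After a filter on low counts, 32 of the 36 genes were tested in each fit, 19 enzymes and carriers and 13 hypoxia response genes. Eno1, Car9 and Adm were tested nowhere, Eno2 was not tested among the epidermal groups and Aldoc was not tested against dermis.

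**Figure D1:**
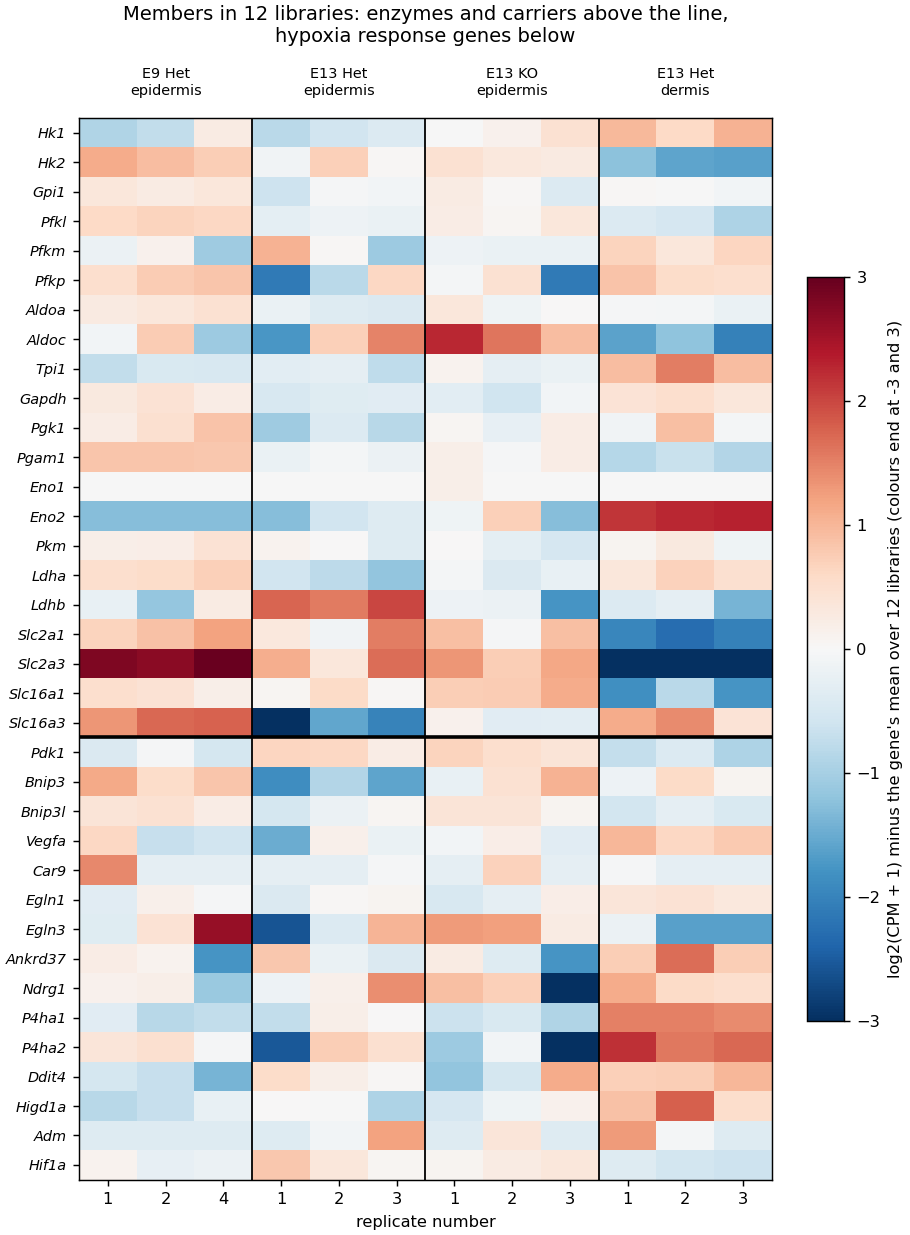
Level of each of the 36 genes in each of the 12 libraries, as log2(CPM + 1) minus the gene's mean over the libraries. Rows are genes, with enzymes and carriers above the line and hypoxia response genes below it, and columns are libraries by group and replicate number; red is above the gene's mean and blue below, and the colours end at -3 and 3. Slc2a3 was high in all 3 E9 libraries and low in all 3 dermal ones, and Ldhb was high in the 3 E13 Het epidermal libraries alone.

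The comparison of E13 with E9 Het epidermis asks how these genes differed as the surface ectoderm became a stratifying epidermis. Of the 19 enzymes and carriers tested, 8 fell and 1 rose, and of the 13 hypoxia response genes 1 fell and 1 rose. DESeq2 and limma voom, run on the same libraries, each called 10 enzymes and carriers lower and 1 higher. Each called 2 hypoxia response genes lower and 2 higher. Among all 13052 genes tested, 2.53% were called lower and 4.77% higher, 7.29% in all. The median log2 fold change was -0.67 for the enzymes and carriers and 0.34 for the hypoxia response genes, beside -0.00 for all genes. Libraries did not overlap in 11 enzymes and carriers that were lower and 1 that was higher at E13, and in 2 hypoxia response genes each way, where 14% of all genes did not overlap below and 15% above.

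Ldha, whose product turns pyruvate into lactate, was at 531, 556 and 618 CPM at E9 and at 252, 220 and 165 CPM at E13. The groups did not overlap, and Ldha fell 2.66-fold (log2 fold change -1.41 ± 0.17, adjusted p = 0.000122). Ldhb, which encodes the other common subunit of the same enzyme and favours the return of lactate to pyruvate, went the other way, from 28.8, 14.4 and 40.1 CPM to 116, 100.2 and 138 CPM (log2 fold change 2.10 ± 0.43, adjusted p = 0.00903). That call was lost without E9 replicate 1 (adjusted p = 0.0574). Ldhb therefore took 31.3% to 45.5% of the counts of both genes in the E13 Het libraries and 2.53% to 6.10% at E9.

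Several other steps between glucose uptake and lactate export were lower at E13 as well. Slc2a3, a high-affinity glucose transporter, was at 2004, 1875 and 2252 CPM at E9 and at 610, 359 and 920.4 CPM at E13, and it fell 3.22-fold (log2 fold change -1.69 ± 0.30, adjusted p = 0.00900). All E13 libraries lay below all E9 libraries, with a wide spread among them, and without the library with fewest genes of each group Slc2a3 was not called (adjusted p = 0.1035). Slc2a1, the other glucose transporter, was at 472 ± 90.8 CPM at E9 and 416 ± 261 CPM at E13 and was not called (adjusted p = 0.898). Slc16a3, the lactate exporter of glycolytic cells, was at 30.8, 41.0 and 42.9 CPM at E9 and at 0, 3.34 and 2.21 CPM at E13. It fell by 4.30 ± 0.84 on the log2 scale (adjusted p = 0.00520), while the general carrier Slc16a1 was at 254 ± 29.7 and 233 ± 52.0 CPM. The Slc16a3 locus overlaps Csnk1d on the chromosome, and reads of such pairs may be shared.

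Of the enzymes in the middle of the pathway, Pgk1 and Pgam1 fell most. Phosphoglycerate kinase, from Pgk1, makes ATP in the pathway, and its transcript was at 306, 367 and 480 CPM at E9 and at 126, 197 and 149 CPM at E13 (log2 fold change -1.29 ± 0.21, adjusted p = 0.00122). Pgam1, the mutase of the next step, was at 880, 879 and 859 CPM at E9 and at 427, 473 and 436 CPM at E13 (log2 fold change -0.97 ± 0.12, adjusted p = 0.000152). Smaller falls passed the test for Pfkl, the liver-type phosphofructokinase (log2 fold change -0.84 ± 0.15), for Gapdh (-0.70 ± 0.14) and for aldolase A, Aldoa (-0.69 ± 0.15). Adjusted p for the 3 ranged from 0.00305 to 0.0100. Hk2, Gpi1 and Pkm had E13 libraries below all E9 libraries without passing the edgeR test (log2 fold changes -0.67, -0.54 and -0.35). DESeq2 called Hk2 and Gpi1 lower, and limma voom called Hk2 and Pkm lower. Tpi1, the triose phosphate isomerase, did not take part in the pattern, with 155 ± 16.1 CPM at E9 and 168 ± 30.4 CPM at E13 (log2 fold change 0.12 ± 0.18, adjusted p = 0.817).

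The hypoxia response genes did not move as a block. Bnip3, a receptor that marks mitochondria for removal, was at 58.2, 38.4 and 47.0 CPM at E9 and at 6.33, 13.7 and 8.0 CPM at E13, and it fell 5.07-fold (log2 fold change -2.34 ± 0.43, adjusted p = 0.00376). Its relative Bnip3l was also below all E9 libraries, at 126 ± 25.6 against 187 ± 15.3 CPM, without passing the edgeR test (adjusted p = 0.0800). Both DESeq2 and limma voom called Bnip3l lower. Pdk1, the kinase that shuts pyruvate dehydrogenase and so keeps pyruvate out of mitochondria, was at 59.4, 79.4 and 55.5 CPM at E9 and at 127, 126 and 95.3 CPM at E13. Pdk1 rose 1.80-fold (log2 fold change 0.85 ± 0.21, adjusted p = 0.0256), a call that was lost without any of E9 replicates 1 and 4 and E13 Het replicates 1 and 2 (adjusted p up to 0.123). Hif1a itself was at 253 ± 33.1 and 364 ± 96.1 CPM (log2 fold change 0.53 ± 0.19, edgeR adjusted p = 0.107), and DESeq2 alone called it higher. Vegfa, Egln1, Egln3, Ankrd37, Ndrg1, P4ha1, P4ha2, Ddit4 and Higd1a were not called by edgeR, with log2 fold changes from -1.64 ± 1.21 (Egln3) to 1.16 ± 0.58 (Ddit4). Of these, limma voom called P4ha1 higher.

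**Figure D2:**
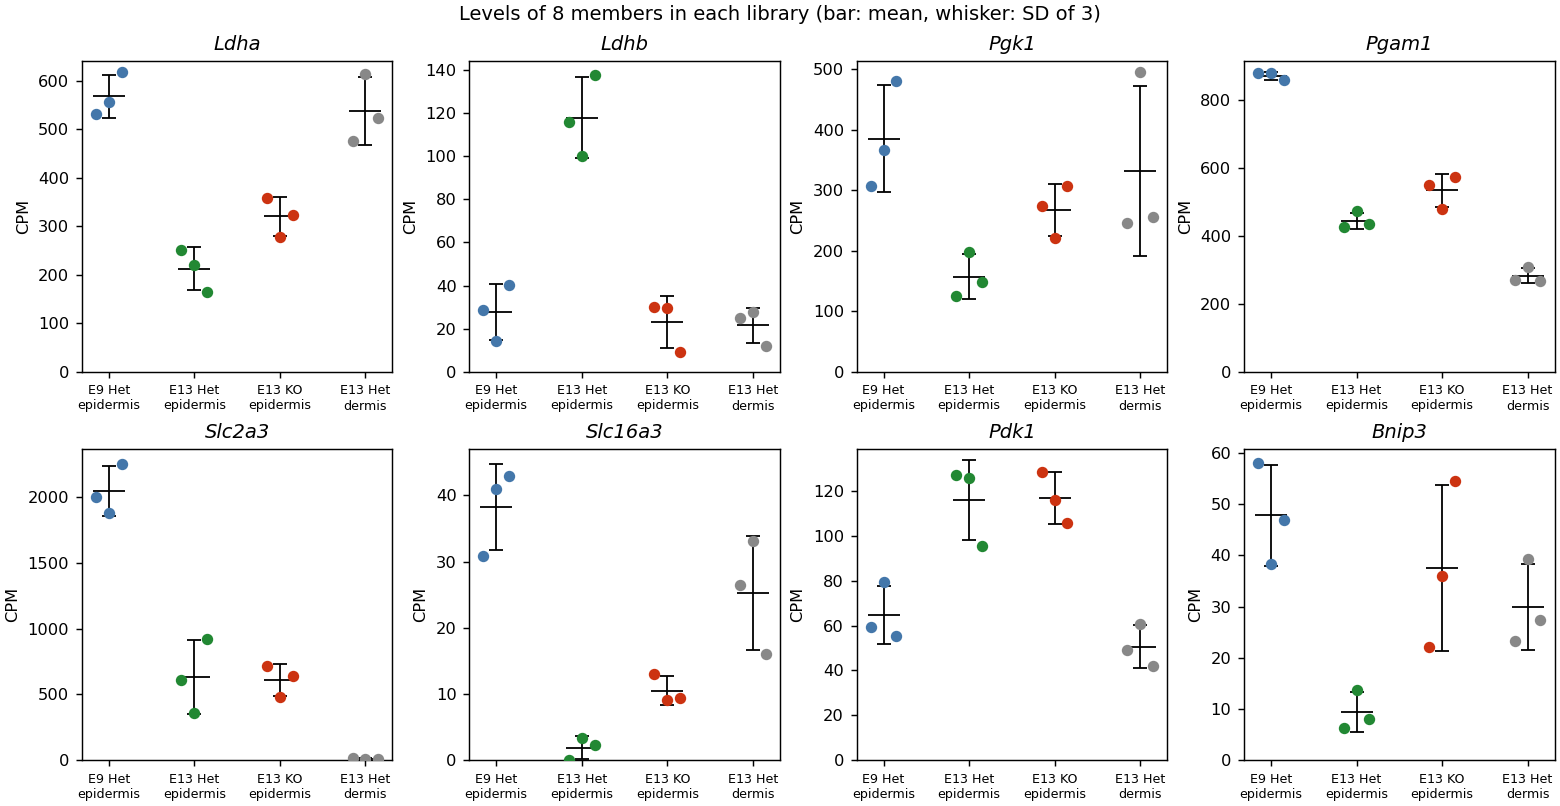
Levels in CPM of 8 of the genes in each of the 12 libraries, by group; points are libraries, the bar is the mean and the whisker the SD of 3. Ldha, Pgk1, Slc16a3 and Bnip3 were high at E9, lowest in E13 Het epidermis and between them in KO epidermis, whereas Slc2a3 and Pdk1 were at like levels in both E13 epidermal groups.

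Promoter sequence is shown for 4 genes that fell, 1 each of lactate production, ATP production, lactate export and mitophagy, and for Ldhb, which rose; the 5 were chosen after their values were seen. Each line gives the 150 bases before 1 RefSeq transcript start (assembly GRCm38.p6), 5′ to 3′ on the gene's own strand; Ldha has a second start in the table, and the first listed is shown. Capitals mark ACGTG or GCGTG, the core that HIF can bind, on either strand, so that CACGT and CACGC in the printed strand count as well and a palindromic CACGTG holds 2 matches. The Ldha stretch is chr7:46845654-46845803 on the plus strand, that of Pgk1 chrX:106186950-106187099 (plus), of Slc16a3 chr11:120948917-120949066 (plus), of Bnip3 chr7:138909507-138909656 (minus) and of Ldhb chr6:142507958-142508107 (minus).
Ldha: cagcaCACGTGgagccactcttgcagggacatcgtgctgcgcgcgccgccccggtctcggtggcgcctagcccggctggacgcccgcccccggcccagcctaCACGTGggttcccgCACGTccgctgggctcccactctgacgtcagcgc
Pgk1: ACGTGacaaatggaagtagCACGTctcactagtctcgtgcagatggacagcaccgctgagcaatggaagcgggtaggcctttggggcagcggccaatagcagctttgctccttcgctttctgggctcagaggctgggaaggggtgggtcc
Slc16a3: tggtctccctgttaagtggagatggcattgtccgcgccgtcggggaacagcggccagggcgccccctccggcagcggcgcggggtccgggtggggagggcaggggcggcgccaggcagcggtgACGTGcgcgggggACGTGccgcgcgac
Bnip3: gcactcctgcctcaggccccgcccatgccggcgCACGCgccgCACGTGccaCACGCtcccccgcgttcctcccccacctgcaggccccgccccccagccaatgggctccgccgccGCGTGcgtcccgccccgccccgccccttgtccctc
Ldhb: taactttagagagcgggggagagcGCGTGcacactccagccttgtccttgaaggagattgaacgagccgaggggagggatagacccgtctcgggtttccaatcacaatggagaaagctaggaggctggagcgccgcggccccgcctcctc
The printed stretches hold 5 matches for Ldha, 2 for Pgk1, 2 for Slc16a3, 5 for Bnip3 and 1 for Ldhb. In RefSeq windows of 300 bases around the start (250 before, 50 after), 33 of the 36 genes had 46 windows, and 37 of them (80.4%) held at least 1 match, beside 14380 of 32851 windows of all genes (43.8%). ACGTG on either strand was in 56.5% of the windows of these genes and 19.6% of all windows, and 3 or more matches were in 30.4% and 8.93%. The windows of these genes were also richer in G and C, 62.0% beside 53.8%, and both sequences hold mostly these bases, so the part of base composition in the shares was not tested. The 300-base window of the Ldha start shown held 7 matches and that of its other start 2. Among the other genes that fell and had a window, Gapdh and Pgam1 held 3 matches, Pfkl held 1, and the Aldoa windows held 0, 1 and 1. Pdk1, which rose, held 2 and 0 in its windows. Slc16a1, which was not called from E9 to E13 in Het, held 5. Windows of the same gene can overlap and were counted separately. Genes with a match in the window include Hif1a, which edgeR did not call among the epidermal groups, and no binding was measured here.

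The KO comparison at E13 asks which of these levels differed between sorted KO and Het epidermis of the same stage. Markers of other cells differed between these groups as well (below). Dependence on ΔNp63 and the make-up of the sorted cells therefore cannot be told apart. Only 2 of the 32 genes tested were called: Bnip3 was higher and Ldhb lower in KO epidermis. Among all genes 0.835% were called higher and 1.36% lower, 2.2% in all. Ldhb was at 30.2, 29.5 and 9.06 CPM in KO epidermis beside 116, 100.2 and 138 CPM in Het, a 5.15-fold fall (log2 fold change -2.37 ± 0.44, adjusted p = 0.0106), and the groups did not overlap. The call held without any single library of either group (adjusted p up to 0.0380). The KO libraries overlapped the E9 libraries (14.4 to 40.1 CPM), and Ldhb took 2.72% to 9.57% of the counts of Ldha and Ldhb in KO libraries.

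Bnip3 was at 22.1, 35.98 and 54.6 CPM in KO epidermis and 6.33, 13.7 and 8.0 CPM in Het, all KO libraries above all Het libraries (log2 fold change 1.99 ± 0.43, adjusted p = 0.0254). Without E13 Het replicate 1 or 3, or KO replicate 2 or 3, it was no longer called (adjusted p up to 0.101).

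The remaining enzymes and carriers were mostly a little higher in KO than in Het epidermis without passing the test. Their median log2 fold change was 0.26 beside 0.03 for all genes, and 14 of 19 were positive. In 9 of the 19 every KO library was above every Het library, and in 1 below, where 10.6% of all genes did not overlap above and 9.36% below. Pgk1 was at 273, 221 and 307 CPM in KO and 126, 197 and 149 CPM in Het (log2 fold change 0.76 ± 0.20, adjusted p = 0.0784). Ldha was at 359, 279 and 324 CPM in KO and 252, 220 and 165 CPM in Het (0.58 ± 0.17, adjusted p = 0.108). Slc16a1 (0.62 ± 0.18) and Slc16a3 (2.44 ± 0.79, at 13.0, 9.13 and 9.32 CPM in KO) stood in the same relation, with adjusted p of 0.106 and 0.167. The other 5 without overlap above were Hk1, Pfkl, Aldoa, Tpi1 and Pgam1, with log2 fold changes from 0.26 to 0.80. DESeq2 on the same libraries called 6 of the 32 genes higher, with Pfkl, Pgk1, Ldha, Slc16a1 and Slc16a3 added to Bnip3, and limma voom called 1, Ldha. Slc2a3 (610 ± 120 CPM in KO, 630 ± 281 in Het), Slc2a1, Gapdh and Pkm differed by at most 0.18 on the log2 scale with libraries that overlapped.

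Among the hypoxia response genes the median log2 fold change was -0.08. Apart from Bnip3, only Bnip3l had KO libraries all above the Het libraries (177 ± 20.9 and 126 ± 25.6 CPM, adjusted p = 0.271). Pdk1 was at 117 ± 11.6 CPM in KO and 116 ± 17.98 CPM in Het, a log2 difference of -0.00 ± 0.21. Hif1a was at 316 ± 26.5 and 364 ± 96.1 CPM, Vegfa at 70.8 ± 13.4 and 57.0 ± 28.6 CPM, and the prolyl hydroxylase Egln1 at 72.6 ± 18.2 and 76.0 ± 14.3 CPM. Ndrg1 and P4ha2 had wide errors (log2 fold changes -0.41 ± 1.13 and -1.26 ± 1.14). Neither had a count in KO replicate 3, one of the 2 libraries with fewest genes detected. The Het libraries were spread as well, at 18.3, 23.0 and 55.2 CPM for Ndrg1 and 1.36, 22.1 and 18.2 CPM for P4ha2.

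KO epidermis at E13 was also compared with E9 Het epidermis, the same 3 E9 libraries as above, so the 2 sets of changes are given side by side and not correlated. The difference between them is the KO comparison with Het epidermis itself. Of the enzymes and carriers 5 of 19 fell and edgeR called 0 higher (of all genes 3.05% were lower and 4.62% higher, 7.67% together), where DESeq2 and limma voom each called 9 lower and 1 higher and 11 had an unadjusted p under 0.05 in edgeR. Pgam1 fell (log2 fold change -0.71 ± 0.12 in KO against E9, -0.97 in Het against E9), as did Ldha (-0.83 ± 0.17 and -1.41), Slc2a3 (-1.75 ± 0.30 and -1.69) and Gapdh (-0.63 ± 0.14 and -0.70). Without the library with fewest genes of each group, Ldha and Slc2a3 were not called in KO against E9 (adjusted p = 0.0651 and 0.0731), and with the replicate block Ldha was not. Pkm, the pyruvate kinase of the last ATP-making step, was called at the edge (-0.53 ± 0.15, adjusted p = 0.04998) and lost its call without any of 5 of the 6 libraries compared, KO replicate 1 being the exception. Gapdh lost its call without E9 replicate 2 (adjusted p = 0.0799).

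Of the 8 enzymes and carriers called lower in E13 Het than in E9 epidermis, the KO mean lay between the E9 and the Het mean in 7, all but Slc2a3. The 8 were picked by a Het level below these E9 libraries, and that choice itself favours a KO mean in between. The same share was not computed over all genes called lower, so no conclusion is drawn from it. Of these 8, 4 were called lower in KO than E9 and 0 were called between KO and Het by edgeR, where 6 had an unadjusted p under 0.05. DESeq2 called 4 of the 8 higher in KO than in Het (Pfkl, Pgk1, Ldha and Slc16a3). For Pgk1 the mean levels were 384 ± 88.4 CPM at E9, 267 ± 43.1 CPM in KO and 157 ± 36.5 CPM in Het, and the change of KO from E9 was -0.53 ± 0.20 on the log2 scale (adjusted p = 0.141). The median change from E9 was -0.43 for the enzymes and carriers in KO and -0.67 in Het. Libraries did not overlap in 10 of the 19 below and 3 above (15.3% and 16.7% of all genes), and in 1 of the 13 hypoxia response genes each way. Pdk1 rose in KO as in Het epidermis, from 64.8 ± 12.8 to 117 ± 11.6 CPM (0.84 ± 0.21, adjusted p = 0.0249), and lost the call without E9 replicate 1 or 4 or KO replicate 1 or 2. Bnip3 was not called between KO and E9 epidermis (-0.35 ± 0.41, adjusted p = 0.726).

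**Figure D3:**
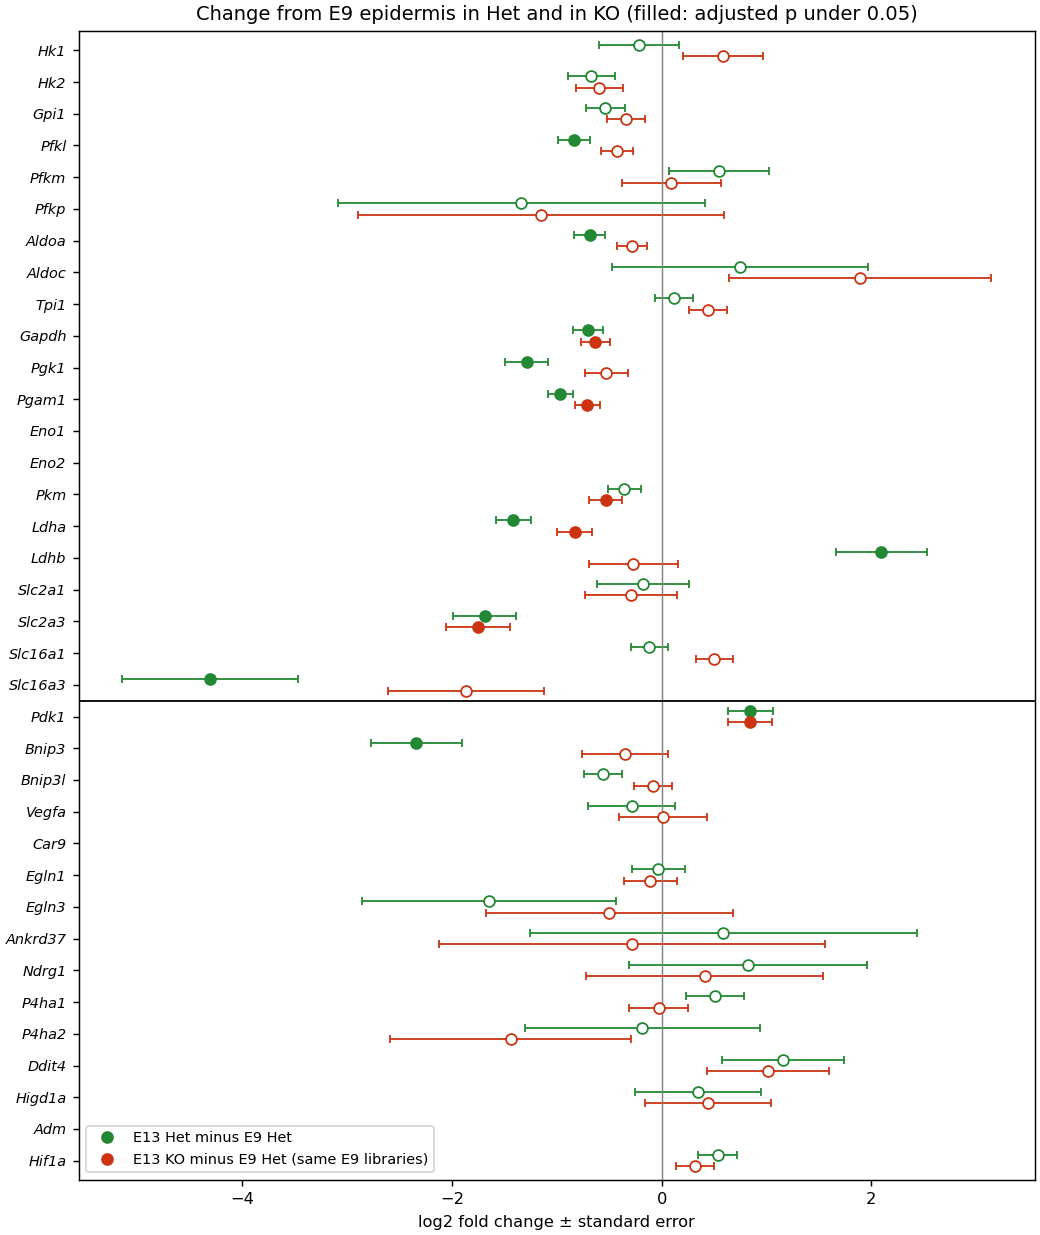
Log2 fold change from E9 epidermis, with its standard error, of each tested gene in E13 Het (green) and E13 KO epidermis (red); filled points had an adjusted p under 0.05. Both sets share the 3 E9 libraries; Ldhb, Bnip3 and Slc16a3 are the genes whose changes lie farthest apart, and those of Slc2a3, Gapdh and Pdk1 nearly coincide.

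Markers of other cells differed between the same groups. The 10 dermal mesenchyme markers summed to 169 to 230 CPM at E9, 260 to 1310 CPM in E13 Het and 1006 to 2068 CPM in KO epidermis, with Twist2, Dpt, Lum and Dcn at 0 in E9 and none at 0 at E13. The 11 neuron and neural tube markers summed to 219 to 232, 70.3 to 161 and 158 to 293 CPM, with none at 0. The 8 macrophage markers summed to 4.25 to 8.94, 37.3 to 48.9 and 5.95 to 44.2 CPM, with C1qa, C1qb, Ptprc and Lyz2 at 0 in E9 and Lyz2 also in E13 Het. The 10 muscle markers reached 280 CPM in E9 replicate 4 and at most 39.9 CPM in the other epidermal libraries, with Myod1, Myog and Tnnt1 at 0 in E9. The 8 melanocyte and neural crest markers summed to 29.8 to 61.5 CPM at E9, 4.52 to 15.8 CPM in E13 Het and 15.01 to 30.2 CPM in KO, with Tyrp1 at 0 in the Het groups and Foxd3 at 0 in E9. The erythroid markers were at 61.9 CPM in E9 replicate 4 and at most 12.7 CPM in the other epidermal libraries. The 8 endothelium markers summed to 10.6 to 53.9 CPM at E9, 0.226 to 101 CPM in E13 Het and 11.4 to 27.9 CPM in KO. Their highest sum was in E13 Het replicate 3, and Cdh5 and Cldn5 were at 0 in E9. The 7 endoderm markers summed to at most 8.59 CPM in any epidermal library. All these lists are sums over few genes. Their part in the results was not tested. Without replicate 2 of E13 Het and of KO, the 2 libraries with most mesenchyme markers (a choice made with these values known), 10 of the 36 genes were called lower and 1 higher in E13 Het against E9, 3 lower and 0 higher in KO against E9, and 1 lower and 1 higher in KO against Het. In the last of these the gene called higher was Pgk1, at 1.06 on the log2 scale, and Bnip3 was not called.

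Against the dermis of the same stage, E13 Het epidermis differed in 19 of the 32 genes tested: 6 enzymes and carriers were higher and 7 lower, and 2 hypoxia response genes were higher and 4 lower. The background here is broad, with 16.5% of all 12975 genes called higher and 18.2% lower, 34.7% in all. Scaling moved the balance: with raw library totals 10 of the genes were called higher and 6 lower, the share of higher among all called genes went from 47.5% to 68.7%, and the median of all genes from -0.13 to 0.30. The median of the enzymes and carriers was -0.26 and turned to 0.19 with raw totals, and that of the hypoxia response genes was -0.60 and -0.14. The ribosomal precursor Rn45s held 2.90% to 9.69% of the gene counts of epidermal libraries and 11.2% to 30.7% of those of dermal libraries. Gapdh, Pgk1, Bnip3, Vegfa and Higd1a were not called with raw totals, while Pfkl and Bnip3l then were. The 10 erythroid markers summed to 0 to 5.19 CPM in E13 Het epidermis and 244 to 1573 CPM in dermis, and the markers at 0 included Hba-a1 and Hba-a2 in both, Hbb-bh1 in epidermis and Gata1 in dermis. The macrophage markers summed to 37.3 to 48.9 and 45.9 to 86.0 CPM. Their part in the differences was not tested.

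Within several families 1 gene was higher in epidermis and another in dermis. Slc2a3 was low in dermis, at 11.8, 8.62 and 5.56 CPM, beside 610, 359 and 920.4 CPM in epidermis (log2 fold change 6.17 ± 0.46, adjusted p = 0.000105). Slc2a1 was at 416 ± 261 CPM in epidermis and 56.9 ± 6.50 CPM in dermis (2.85 ± 0.43, adjusted p = 0.00236), so both glucose transporters were higher in epidermis. Of the hexokinases, which trap glucose in the cell, Hk2 was higher in epidermis (82.0 ± 26.3 against 24.0 ± 3.96 CPM, 1.76 ± 0.29) and Hk1 lower (23.5 ± 3.23 against 67.3 ± 10.9 CPM, -1.54 ± 0.25). Ldhb was higher in epidermis (2.44 ± 0.33, adjusted p = 0.000949) and Ldha lower (-1.37 ± 0.20, adjusted p = 0.00146). The lactate carrier Slc16a1 was higher in epidermis, at 205, 293 and 202 against 54.3, 110.4 and 56.6 CPM (1.63 ± 0.33), and Slc16a3 lower, at 0, 3.34 and 2.21 against 26.5, 33.1 and 16.1 CPM (-3.72 ± 0.99). The call of Slc16a3 was lost without E13 Het replicate 3 or dermal replicate 1 or 2 (adjusted p up to 0.0899).

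Of the enzymes that the 36 genes hold as a single gene, Tpi1 (-1.63 ± 0.24), Gapdh (-0.84 ± 0.15) and Pgk1 (-1.11 ± 0.33) were lower in epidermis, and Pgam1 was higher (0.63 ± 0.15). Gpi1 (215 ± 45.8 CPM in epidermis and 248 ± 11.4 CPM in dermis) and Pkm (914 ± 157 and 1029.5 ± 145 CPM) were not called. Pgk1 lost its call without E13 Het replicate 1 or 3 or dermal replicate 2, and Pgam1 without E13 Het replicate 2 or dermal replicate 3. Tpi1 overlaps Spsb2 on the chromosome. Eno2, the neuronal enolase, had counts of 0, 5 and 5 in E13 Het epidermis and 168, 123 and 306 in dermis (9.71, 10.6 and 10.97 CPM), and its call (-4.35 ± 1.16, adjusted p = 0.0204) was lost without E13 Het replicate 2 or any 1 dermal library. It passed the filter on low counts only through dermis, where it was high. Its call, counted above among the enzymes called lower, therefore gives no support of its own.

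Among the hypoxia response genes, Hif1a (364 ± 96.1 against 188 ± 17.5 CPM, log2 fold change 0.92 ± 0.20, adjusted p = 0.00823) and Pdk1 (1.17 ± 0.22) were higher in epidermis, and Hif1a was not called without the library with fewest genes of each group (adjusted p = 0.0631). P4ha1, which hydroxylates prolines of collagen, was lower, at 49.5, 94.9 and 84.4 CPM against 240.4, 242 and 224 CPM (-1.64 ± 0.25, adjusted p = 0.00177). Vegfa, the vascular growth factor, was at 57.0 ± 28.6 CPM in epidermis and 130 ± 17.1 CPM in dermis (-1.19 ± 0.39, adjusted p = 0.0446). Bnip3 (-1.69 ± 0.46) and Higd1a, a mitochondrial protein (-1.51 ± 0.46), were lower as well. Each of these 3 lost its call without any of 3 or more single libraries, among them E13 Het replicate 3 and dermal replicate 2 for all 3 (adjusted p up to 0.217). Libraries did not overlap in 7 enzymes and carriers each way and in 2 hypoxia response genes above and 7 below, where 24.8% of all genes did not overlap above and 31.2% below.

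**Figure D4:**
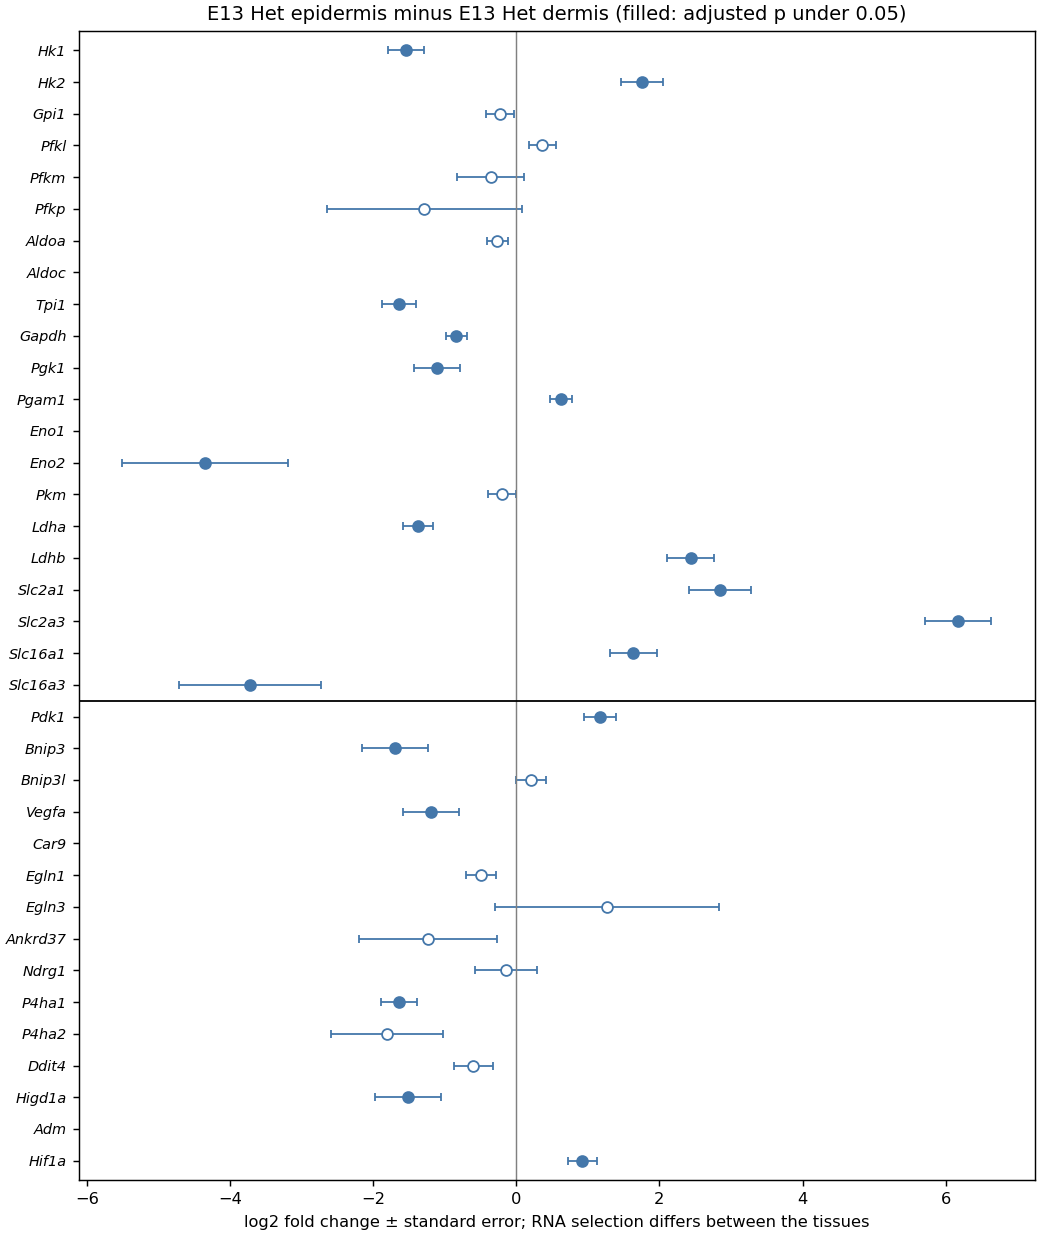
Log2 fold change of E13 Het epidermis minus E13 Het dermis, with its standard error, of each tested gene; filled points had an adjusted p under 0.05, and the RNA preparation differs between the tissues. Slc2a3, Slc2a1 and Ldhb lie farthest to the side of epidermis, and Eno2 and Slc16a3 to the side of dermis. Eno2 passed the filter on low counts only through dermis.

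Shares of counts within a pair of isozymes do not depend on library scaling, although they are not corrected for transcript length and so are compared between groups only. Ldhb made up 4.59% ± 1.84 of Ldha and Ldhb counts at E9, 36.1% ± 8.16 in E13 Het, 6.68% ± 3.55 in KO and 3.84% ± 1.41 in dermis (SD, n = 3). The E13 Het libraries lay apart from all 9 others. Slc2a3 made up 81.3% ± 2.02, 61.4% ± 5.19, 61.9% ± 4.24 and 13.1% ± 3.94 of the 2 glucose transporters in the same order of groups. Slc16a3 made up 13.2% ± 3.14, 0.737% ± 0.638, 2.89% ± 0.872 and 26.0% ± 5.93 of the 2 lactate carriers, with no overlap between any neighbouring pair of groups in that order. Bnip3 made up 20.4% ± 3.81, 6.89% ± 2.42, 17.6% ± 8.02 and 21.4% ± 2.94 of Bnip3 and Bnip3l. With 3 libraries against 3 the exact two-sided permutation test cannot give p under 0.1, a value reached in 3 of 11 shares for KO against Het, 5 of 11 for E13 against E9, 6 of 11 for KO against E9 and 5 of 11 for epidermis against dermis. Adjusted over the 44 exact permutation tests, that smallest p is 0.232.

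**Figure D5:**
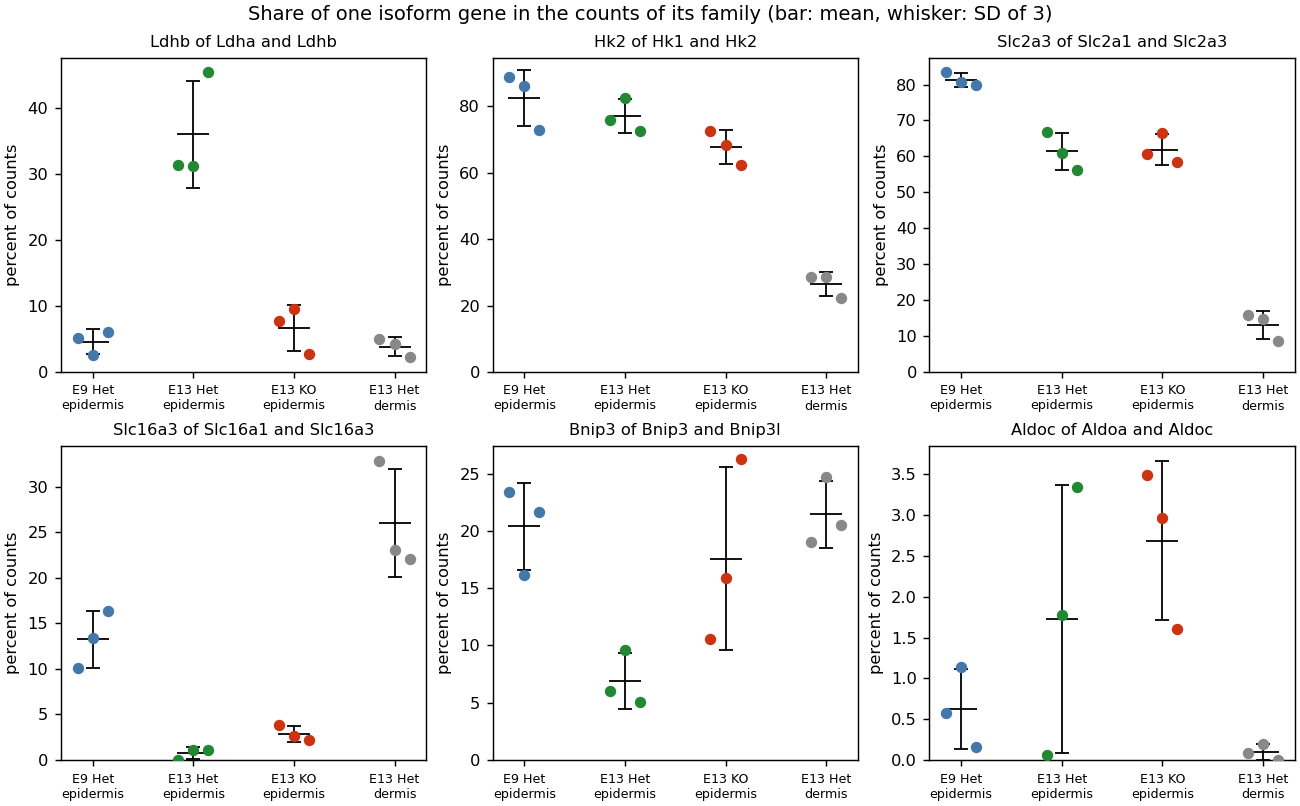
Percent of counts within a family that came from 1 gene, for 6 families and 4 groups; points are libraries, the bar is the mean and the whisker the SD of 3. Ldhb took 31.3% to 45.5% in the 3 E13 Het epidermal libraries and under 10% in the other 9.

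Several of the 36 genes had few or no counts. Eno1, the common enolase, was listed at 0 in 11 libraries and at 1 count in KO replicate 1, so no level can be given for that step. The counts do not show whether its RNA was absent or its reads were not assigned to it. Reads that aligned to more than 1 place were given to no gene, and their part in this was not tested. Eno2 had 0 counts in all 3 E9 libraries and 8, 22 and 0 counts in KO epidermis. Car9, a carbonic anhydrase induced by HIF, and Adm, a vasodilator peptide, were at no more than 2.27 CPM in any library. Pfkp, Aldoc, Egln3 and Ankrd37 had group means of 0.374 to 15.6 CPM with a library at 0 in at least 1 group, and none of them was called. Egln3 was at 3.69, 7.22 and 36 CPM at E9, so 1 library carried that mean. Pfkm overlaps Senp1, Pfkp overlaps Pitrm1, Ankrd37 overlaps Ufsp2 and Car9 overlaps Arhgef39 and Tpm2, and Aldoa has the copies Aldoart1 and Aldoart2 among the counted genes.

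Other genes of the same pathways were followed in lists. Among 10 tested isozymes and regulators of glycolysis outside the 36 genes, Eno3, the muscle enolase, fell from 59.6 ± 10.5 CPM at E9 to 8.81 ± 5.34 CPM in E13 Het (log2 fold change -2.75 ± 0.49, adjusted p = 0.00274) and to 9.38 ± 3.40 CPM in KO, and the other 9 were not called in either comparison. Muscle markers were highest in E9 replicate 4, where Eno3 was at 65.4 CPM, beside 47.5 and 66.1 CPM in E9 replicates 1 and 2. Of the 13 genes of the HIF machinery, Arnt, the constant partner of HIF, rose and Arnt2 fell from E9 to E13 in Het (0.73 ± 0.18 and -1.59 ± 0.28) and in KO (1.01 ± 0.18 and -0.95 ± 0.27). Hif3a, an alternative alpha subunit, rose in KO against E9, from 21.8 ± 9.30 to 119 ± 18.7 CPM (2.44 ± 0.40, adjusted p = 0.00170), and had 41.0 ± 20.1 CPM in E13 Het. Between KO and Het edgeR called 0 of the 13 (2 had an unadjusted p under 0.05), and DESeq2 and limma voom each called 1 higher. Of the 10 glycolysis isozymes and regulators edgeR, DESeq2 and limma voom called 0 in that comparison, with 0 unadjusted.

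Of 32 other HIF targets tested, 4 rose and 1 fell from E9 to E13 in Het (4.77% and 2.53% of all genes), 3 rose in KO against E9 (4.62% of all genes), and Tfrc alone was called between KO and Het. Tfrc, the transferrin receptor, was at 238, 278 and 282 CPM in KO and 154, 159 and 107 CPM in Het epidermis (log2 fold change 0.92 ± 0.21, adjusted p = 0.0377). Bhlhe40, a repressor that HIF induces, rose in Het (4.32 ± 0.84) and in KO against E9 (3.96 ± 0.83). Mif, a cytokine, fell in Het (-1.34 ± 0.33, adjusted p = 0.0270). Car12, a carbonic anhydrase, was at 77.1 ± 26.1 CPM in E13 Het and 0.411 ± 0.712 CPM at E9, where its 7 counts came from 1 library, and at 3.79 ± 3.87 CPM in KO. Of the 28 genes of pyruvate entry and the TCA cycle, edgeR called 0 in E13 against E9 Het (4 had an unadjusted p under 0.05), as did DESeq2 and limma voom. Between KO and Het edgeR called 0 of them (4 unadjusted), DESeq2 called 1 higher and 1 lower and limma voom 0, and the median change from E9 was 0.27 in Het. Of the 7 genes of the pentose phosphate pathway, edgeR called 0 in either (1 unadjusted in each), limma voom 0 in either, and DESeq2 1, higher in KO than in Het. Of the immediate early genes, which respond within minutes to many stimuli, 3 of 12 were called higher in E13 Het against E9 (Fos, Jun and Ier3, beside 4.77% of all genes; the median of the 12 was 2.69) and 3 of 12 in KO against E9 (Fos, Jun and Nr4a1, beside 4.62%; median 2.93), while 0 of 12 were called between KO and Het by edgeR, DESeq2 or limma voom (0 unadjusted). Their part in the results was not tested.

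Against dermis, where 18.2% of all genes were called lower and 16.5% higher in epidermis, 4 of 13 genes of the HIF machinery were lower and 0 higher (Tceb2 and Vhl with the smallest adjusted p, log2 fold changes -2.63 ± 0.38 and -1.42 ± 0.31), 9 of 34 other HIF targets lower and 4 higher, 5 of 29 TCA cycle genes lower (a share below that of all genes) and 0 higher, and 3 of 7 pentose phosphate genes lower and 0 higher. In the 3 lists with 0 higher in edgeR, DESeq2 and limma voom also called 0 higher. Angptl4, a lipase inhibitor, was at 9.44 ± 2.08 CPM in epidermis and 115 ± 11.3 CPM in dermis (-3.62 ± 0.25, adjusted p = 4.98e-05), and Tfrc was higher in epidermis (1.89 ± 0.28). Of the 12 immediate early genes, 10 were called lower in epidermis than in dermis, beside 18.2% of all genes.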

How the data were processed

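RNA of 12 libraries, 4 groups of 3, was analysed from the gene counts that the authors deposited. Per the submitters' processing notes these rest on Bowtie2, TopHat2, HTSeq and build mm10, and the strand setting was not given in the sources used here. Summary lines of the counter (48.8% to 63.8% of entries in epidermal and 20.2% to 21.6% in dermal libraries) were left out. Replicates of a group were compared in pairs: none were identical, and chi-square per degree of freedom ranged from 16.1 to 239.

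The test was the robust quasi-likelihood F test of edgeR 4.0.16 (R 4.3.3) after filterByExpr and TMM scaling, and p-values were adjusted by Benjamini-Hochberg across every gene of the fit, with 0.05 as the threshold. The 3 epidermal comparisons came from 1 fit of 9 libraries (13052 genes, 6 residual degrees of freedom, biological coefficient of variation 0.571) and the dermal one from a fit of 6 (12975 genes, 4, 0.506). The procedure was also run on simulated data whose spread was set lower than that of these libraries. That run therefore does not speak of power or false calls at the spread found here. Standard errors are the log2 fold change over the root of F. CPM used TMM factors of all 12 libraries, and the depth given with the results limits the precision of genes with few counts.

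All 36 genes and Trp63 are named, with up to 4 called genes of smallest adjusted p from each other pathway list and comparison. The 36 genes and the lists were chosen with earlier results of these data known. Alternatives were DESeq2 1.42.0, limma 3.58.1 voom with sample weights, RLE factors, raw totals, no filter, all 12 libraries in 1 fit, a replicate block, each library left out, the libraries with fewest genes left out, and RNAs without poly(A) tails left out. Leaving out replicate 2 of both E13 epidermal groups, and fitting the 2 compared groups alone, were added after seeing the data. Positions and promoter windows are from RefSeq (GRCm38.p6), where all 36 symbols matched and 33 had a window.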

Additional observations from a re-analysis of the deposited data

How the results depend on the processing

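Over the 36 genes and all alternatives, 0 called changes reversed, and 77 gene values lost and 48 gained a call. All other values kept their side of the threshold. Among them, 32 values of uncalled genes changed sign with a shift of at least 1 standard error. The remaining 1955 include smaller changes of sign. In KO against Het, for instance, 7 of 29 uncalled genes changed sign without E13 Het replicate 1. Of the calls, 1 of 2 (KO against Het), 9 of 11 (E13 against E9), 3 of 6 (KO against E9) and 12 of 19 (dermis) were kept with any library left out. KO against Het had 1 gene called higher, and 6 with DESeq2, 2 with raw totals, 4 without the filter, 0 with the 2 groups alone, 0 without the libraries with fewest genes and 0 to 3 with 1 library left out. Over all genes 287 were called there, 824 with DESeq2, 656 with limma voom, 148 without replicate 2 of both groups and 182 (without KO replicate 1) to 348 with 1 library left out. E13 against E9 had 2 called higher and 9 lower, and 3 and 12 with DESeq2 and with limma voom. The counts were 1 and 8 without the libraries with fewest genes, and 1 and 10 without replicate 2 of E13 Het and KO. With 1 library left out they were 0 (without E9 replicate 1) to 3 higher and 9 to 10 lower. Over all genes 952 were called, 1997 with DESeq2, 1729 with limma voom and 569 (without E9 replicate 2) to 812 with 1 library left out. KO against E9 had 1 called higher and 5 lower, and 2 and 9 with DESeq2 and with limma voom, 0 and 2 without the libraries with fewest genes, 0 and 3 without replicate 2 of E13 Het and KO, and 0 to 1 and 3 (without E9 replicate 2) to 5 with 1 library left out. Over all genes 1001 were called, 2172 with DESeq2, 2575 with limma voom, 647 without replicate 2 of E13 Het and KO, and 557 (without E9 replicate 2) to 815 with 1 library left out. Against dermis 11 were called lower, 6 with raw totals and 5 (without dermal replicate 2) to 13 with 1 library left out, and over all genes 4504 and 2934 (without dermal replicate 3) to 5269. The causes were not tested. With the replicate number as a block, 0 of the 36 genes were called higher and 1 lower in KO against Het (286 of all genes), 1 and 7 in E13 against E9 (576), 0 and 3 in KO against E9 (540) and 8 and 9 against dermis (3464). The labels do not say whether the numbers pair the samples. Deviations of same-numbered KO and Het libraries correlated at -0.0157, 0.2 and -0.0225. The value of 0.2, for replicate 2, was the highest of all KO and Het pairs, whereas KO replicate 1 correlated best with Het replicate 3. So few weak correlations cannot settle the pairing. The E9 groups share only numbers 1 and 2 with E13, so that block used 2 libraries a group. Isozyme shares were computed without length scaling, so that alternative was already the value given. Depth limits genes of few counts: 3 counts in a group amount to 0.0428 CPM in dermis and 0.173 to 0.187 CPM in epidermal groups.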

Other observations

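The integrated stress response slows translation and raises amino acid synthesis in stressed cells, and 14 of its genes outside the 36 were tested. Atf3, a transcription factor of that response, was at 2.02 ± 1.67 CPM in E9 epidermis, 28.6 ± 18.4 CPM in E13 Het and 30.0 ± 12.4 CPM in KO (n = 3 each). Atf3 rose from E9 in Het (log2 fold change 3.76 ± 0.79, edgeR adjusted p = 0.00869) and in KO (3.82 ± 0.79, adjusted p = 0.00808). Ppp1r15a, which restores translation, rose from 27.5 ± 6.24 CPM to 59.3 ± 15.5 CPM in Het and 70.5 ± 7.17 CPM in KO. These were the 2 of 14 genes called in Het against E9, beside 7.29% of all genes, and Atf5 was the third of 3 called in KO against E9, beside 7.67%. Between KO and Het edgeR called 0 of the 14 (2 had an unadjusted p under 0.05), and DESeq2 and limma voom called 0.

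Against dermis 6 of the 14 were lower in epidermis and 2 higher, beside 18.2% and 16.5% of all genes. Atf4, the central factor of the response, was at 143 ± 10.3 CPM in epidermis and 355 ± 24.4 CPM in dermis (log2 fold change -1.34 ± 0.16, edgeR adjusted p = 0.000505). Phgdh, the first enzyme of serine synthesis, which branches from glycolysis, was higher in epidermis, at 220 ± 38.4 and 76.9 ± 16.8 CPM (1.48 ± 0.22, adjusted p = 0.00141). Of the genes of pyruvate entry and the TCA cycle, 3 of 28 (10.7%) were called in KO against E9, near the 7.67% of all genes: Pdk2 (2.77 ± 0.64), a relative of Pdk1, and Pdha1 (0.66 ± 0.18), a subunit of pyruvate dehydrogenase, rose, and Suclg2 (-0.92 ± 0.24) fell.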
